A study of Mus musculus with 24 samples.

Results

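The 7 genes of the NMDA receptor family (Grin1, Grin2a, Grin2b, Grin2c, Grin2d, Grin3a and Grin3b) were taken by name from a table of 53379 genes, and all 7 were among the 37598 genes that passed the filter on low counts. They were followed in mouse hippocampus after kainate, a glutamate analogue that provokes status epilepticus. Adult male C57/BL6N mice, obtained at 8 weeks and acclimatised for 4 weeks, received 70 nl of 20 mM kainate (KA) beside the right hippocampus, or saline in the sham group (SH). Mice of both groups were anaesthetised with medetomidine and ketamine, reversed with atipamezole, and later given buprenorphine, so SH is not an untreated state. The part of these drugs in the levels was not tested. KA mice without convulsive seizures had been left out by the authors. Right hippocampi were taken 24 hours later, and each treatment was represented by 3 pools, the first of 4 mice and the others of 2. Sorting by NeuN divided every pool into NeuN-positive nuclei (neurons) and NeuN-negative nuclei (glia), which gave 12 libraries in 4 groups of 3. The libraries hold nuclear polyadenylated RNA, so levels here are not those of whole cells or synapses.

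NMDA receptors are glutamate-gated cation channels that open only when glutamate and a co-agonist (glycine or D-serine) are bound and depolarisation has relieved the magnesium block. Every receptor contains GluN1 (Grin1), which binds the co-agonist. The GluN2 subunits (Grin2a to Grin2d) bind glutamate and set channel kinetics, and the GluN3 subunits (Grin3a and Grin3b) bind glycine and lower calcium permeability. In the adult hippocampus GluN2A and GluN2B are the main GluN2 subunits of pyramidal cells, GluN2D is known from interneurons, and GluN2C is known from astrocytes.

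The genes lie on GRCm38 at chr2:25291181-25319187 (Grin1), chr16:9567898-9995560 (Grin2a), chr6:135713233-136173511 (Grin2b), chr11:115249169-115267243 (Grin2c), chr7:45831883-45878378 (Grin2d), chr4:49661611-49845744 (Grin3a) and chr10:79970715-79977190 (Grin3b), Grin3b on the plus strand and the others on the minus strand. Counts came from exons, whose summed length was 9.7 kb for Grin1, 17.93 kb for Grin2a, 24.84 kb for Grin2b, 5.04 kb for Grin2c, 6.66 kb for Grin2d, 12.28 kb for Grin3a and 3.3 kb for Grin3b. The counting ignored strand and dropped reads that touched exons of more than 1 gene. This bears most on Grin3b, of whose exon bases 32.13% overlap Tmem259 on the opposite strand, then on Grin1 (13.47%, antisense Grin1os) and Grin2d (9.66%, antisense Gm45441). Grin2a and Grin3a shared no exon base with another gene, and Grin2b and Grin2c shared 0.58% and 1.81%.

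RefSeq promoter windows of GRCm38.p6, from 250 bases before to 50 after the start of the gene, were held for Grin1, Grin2c, Grin2d and Grin3b. Those of Grin1 and Grin2c are shown because these genes gave the highest neuronal and the highest glial level of the family per kilobase. Capitals mark the GC box GGGCGG (or CCGCCC on the other strand), and TATAAA (or TTTATA) was searched too. The Grin1 window is chr2:25319138-25319437 and the Grin2c window chr11:115267194-115267493, both on the minus strand.
Grin1: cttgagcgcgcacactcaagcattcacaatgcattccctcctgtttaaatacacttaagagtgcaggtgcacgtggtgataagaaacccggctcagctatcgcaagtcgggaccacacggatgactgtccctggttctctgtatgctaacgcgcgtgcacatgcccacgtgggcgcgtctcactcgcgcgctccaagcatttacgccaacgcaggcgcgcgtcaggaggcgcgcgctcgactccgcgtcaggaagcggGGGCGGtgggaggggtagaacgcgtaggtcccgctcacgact
Grin2c: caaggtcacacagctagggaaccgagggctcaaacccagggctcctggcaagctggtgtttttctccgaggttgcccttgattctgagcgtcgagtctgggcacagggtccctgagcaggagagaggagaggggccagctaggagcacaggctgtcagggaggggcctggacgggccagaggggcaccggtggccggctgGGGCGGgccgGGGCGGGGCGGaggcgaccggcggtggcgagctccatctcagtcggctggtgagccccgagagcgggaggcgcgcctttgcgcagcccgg
Both windows were rich in G and C, at 60.7% in Grin1 and 70% in Grin2c against a median of 52.7% over promoters. They held 33 and 22 CpG dinucleotides against a median of 7. The GC box occurred 1 time in Grin1 and 3 times in Grin2c, with a pair of overlapping copies, and 35.7% of all promoter windows held at least 1. The TATA letters, found in 13.6% of windows, were in neither. A match of letters is a description and shows no bound factor.

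The sort was checked with cell type markers. Rbfox3, which encodes NeuN, ranged from 161 to 274 CPM (counts relative to a library size scaled by TMM factors) in neurons and from 17.7 to 56.9 CPM in glia. The astrocyte gene Aldh1l1 ranged from 5.08 to 12.6 CPM in neurons and from 22.9 to 38.3 CPM in glia, the microglial gene Cx3cr1 from 2.65 to 10.8 and from 102 to 388 CPM, and the myelin gene Mbp from 58.0 to 295 and from 1090 to 4980 CPM. So neurons and glia were as labelled, and each fraction carried transcripts of the other. Total counts ranged from 7769400 to 40364768 per library. SH glia replicate 1 and KA glia replicate 2 were amplified from about 0.05 ng RNA with 15 PCR cycles and the others from 1 ng with 10 cycles. SH glia replicate 1 had the lowest Grin1, Grin2a and Grin2b of the 12 libraries.

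Of the 7 subunit genes, 4 were higher in neurons, Grin2c was higher in glia, and Grin3a and Grin3b did not pass the test between cell types (edgeR quasi-likelihood, FDR below 0.05). Among all genes tested, 11.6% were called higher in neurons and 6.91% higher in glia. Grin1, the subunit every receptor needs, measured 419, 703 and 744 CPM in SH neurons and 687, 523 and 688 CPM in KA neurons, for replicates 1, 2 and 3. In glia it measured 19.7, 114 and 91.2 CPM after SH and 24.8, 60.6 and 128 CPM after KA. All neuronal libraries were above all glial ones, with a log2 fold change of 3.10 (SE 0.46, FDR 0.000103).

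Grin2a, the GluN2 subunit of mature synapses, measured 305, 756 and 948 CPM in SH neurons and 397, 611 and 658 CPM in KA neurons. In glia it measured 15.2, 146 and 107 CPM after SH and 22.1, 60.5 and 124 CPM after KA, and its log2 difference between cell types was 2.96 (SE 0.52, FDR 0.00051). As for Grin1, replicate 1 was lowest within each of the 4 groups except Grin1 in KA neurons. Grin2b, the GluN2 subunit prominent in the young brain and retained in the adult forebrain, measured 179, 417 and 458 CPM in SH neurons and 348, 380 and 372 CPM in KA neurons. In glia it measured 36.5, 110 and 70.2 CPM after SH and 50.2, 73.6 and 62.6 CPM after KA, and the log2 difference was 2.42 (SE 0.33, FDR 4.78e-05). Neurons and glia did not overlap for either gene.

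Grin2d, a GluN2 subunit with slow deactivation, was far lower in reads than Grin2a and Grin2b. It measured 12.7, 31.6 and 35.5 CPM in SH neurons and 20.8, 28.7 and 38.0 CPM in KA neurons. In glia it measured 7.88, 14.4 and 11.7 CPM after SH and 7.21, 10.1 and 18.2 CPM after KA. The groups of the cell types overlapped, since SH neurons replicate 1 lay below SH glia replicate 2 and KA glia replicate 3. Its log2 difference of 1.26 (SE 0.31, FDR 0.00709) was no longer called without both low-input libraries (0.89, FDR 0.182), without SH glia replicate 1 (0.79, FDR 0.109), without KA glia replicate 1 (0.94, FDR 0.0913) or without KA glia replicate 2 (1.01, FDR 0.0926).

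Grin2c ran the other way. It measured 68.4, 48.3 and 75.5 CPM in SH glia and 34.8, 9.56 and 11.2 CPM in KA glia. In neurons it measured 0.425, 2.49 and 18.8 CPM after SH and 1.11, 1.39 and 4.78 CPM after KA, so only the neuronal library of SH replicate 3 reached the range of glia. The log2 difference, neurons over glia, was -3.02 (SE 0.65, FDR 0.00257). In each of the 6 pools Grin2c was higher in glia, and the neuronal level was between 0.619% and 42.7% of the glial level. The median of 10 astrocyte markers in neurons was between 6.82% and 36.3% of their level in glia, with the highest values in replicate 3 of both treatments, as for Grin2c. The part of carried-over glial RNA in the neuronal Grin2c level was not tested.

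Grin3a, a glycine-binding subunit, had similar levels in both fractions. It measured 38.1, 60.1 and 70 CPM in SH neurons and 47.2, 63.8 and 62.6 CPM in KA neurons. In glia it measured 35.9, 71.8 and 78.6 CPM after SH and 35.6, 28.9 and 34.8 CPM after KA. The 4 groups ran from 28.9 to 78.6 CPM, and the difference between cell types, a log2 value of 0.33 (SE 0.25, FDR 0.479), did not pass the test. Its direction turned to -0.59 in SH libraries only, to -0.08 with library size only and to -0.04 without both low-input libraries.

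Grin3b, the other glycine-binding subunit, was near the limit of detection. It measured 0.425, 1.10 and 0.734 CPM in SH neurons and 0.598, 1.70 and 1.74 CPM in KA neurons. In glia it was at 0 counts in SH replicate 1, which allows up to 0.241 CPM, then at 0.923 and 1.79 CPM, and at 1.65, 1.87 and 2.27 CPM after KA. These values rest on 0 to 60 counts per library, and the groups of the cell types overlapped (log2 difference -0.40, SE 0.71, FDR 0.786).

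**Figure D1:**
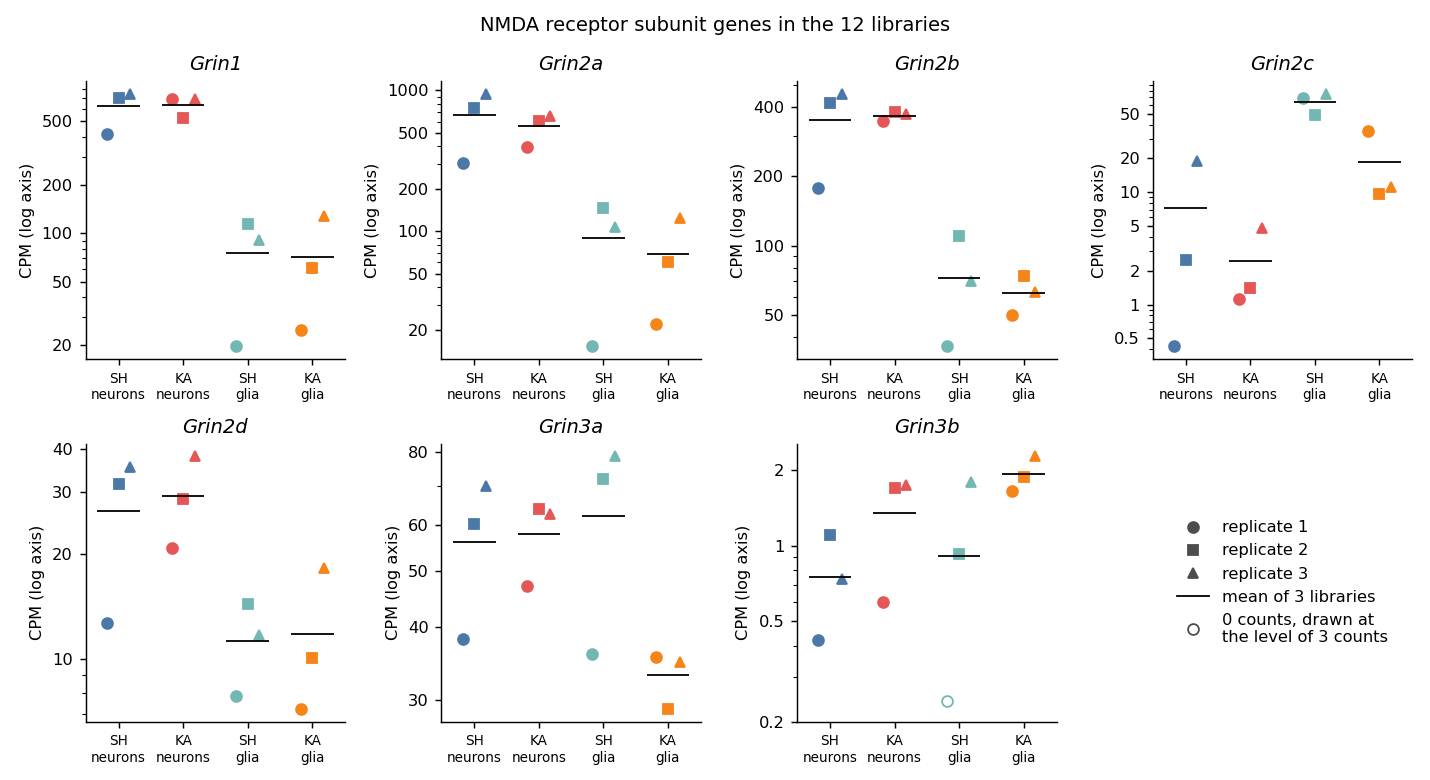
CPM of the 7 subunit genes (log axes) in SH neurons, KA neurons, SH glia and KA glia, with 1 point per library, a shape for each replicate number and a line at the mean of 3 libraries. Grin1, Grin2a and Grin2b are higher in all neuronal libraries than in all glial ones, Grin2c is higher in glia, and the 3 KA glia libraries lie below the 3 SH glia libraries for Grin2c and Grin3a.

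The level in glia as a share of the level in neurons of the same pool separated the members further. It ranged from 3.61% to 18.6% for Grin1, from 4.98% to 19.4% for Grin2a and from 14.4% to 26.4% for Grin2b. Rbfox3 ranged from 11% to 24.2%, and the median of 10 neuron markers from 11.9% to 32.6%. Within each pool Grin1 and Grin2a were below the median of the neuron markers, whereas Grin2b was above it in SH replicate 1 (20.4% against 16.9%), KA replicate 1 (14.4% against 11.9%) and KA replicate 2 (19.4% against 18.1%). Shares were higher for Grin2d, from 33.1% to 62.0%, and for Grin3a, from 45.4% to 119%. For Grin3a all 3 SH pools (94.4%, 119% and 112%) were above all 3 KA pools (75.4%, 45.4% and 55.5%). The summed CPM of the neuron markers in glia was 623, 1570 and 1750 CPM in SH replicates 1, 2 and 3 and 485, 905 and 1610 CPM in KA replicates, with the lowest values in replicate 1 of both treatments, as for Grin1. From SH to KA the sum went down in each replicate number, whereas Grin1 in glia went up in numbers 1 and 3. How much of the glial Grin1, Grin2a and Grin2b reads came from neuronal nuclei was not tested.

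**Figure D2:**
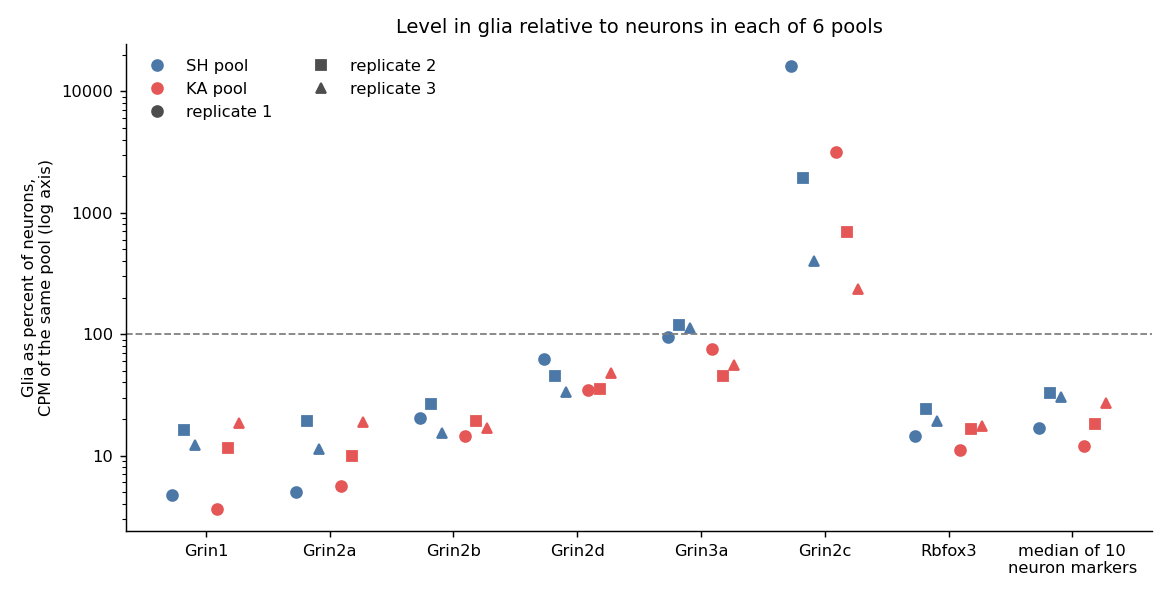
CPM in glia as a percent of CPM in neurons of the same pool (log axis) for 6 subunits, Rbfox3 and the median of 10 neuron markers, with SH pools in blue, KA pools in red and a dashed line at equal levels. Grin1, Grin2a and Grin2b lie at or below 26.4%, Grin3a between 45.4% and 119%, and Grin2c above 100% in every pool.

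To compare genes with each other, CPM were divided by the exon length in kilobases. In SH neurons Grin1 led with 64.2 ± 18.2 CPM per kb (SD, n = 3), followed by Grin2a (37.3 ± 18.4), Grin2b (14.1 ± 6.06), Grin3a (4.57 ± 1.33), Grin2d (4.0 ± 1.83), Grin2c (1.44 ± 2.00) and Grin3b (0.228 ± 0.102). Grin1 exceeded Grin2a, and Grin2a exceeded Grin2b, within each of the 6 neuronal libraries. Grin3a and Grin2d, neighbours in that order, differed by less than their spread. The order was the same in KA neurons, with Grin1 at 65.2 ± 9.77, Grin2a at 31.0 ± 7.74 and Grin2b at 14.8 ± 0.655 CPM per kb.

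In SH glia the order was another one. Grin2c led with 12.7 ± 2.80 CPM per kb, ahead of Grin1 (7.72 ± 5.07), Grin3a (5.06 ± 1.87), Grin2a (4.99 ± 3.75), Grin2b (2.91 ± 1.48), Grin2d (1.70 ± 0.493) and Grin3b (0.275 ± 0.272). Grin2c exceeded Grin1 by less than the SD of Grin1, with Grin1 the higher of the pair in replicate 2, and Grin1, Grin3a and Grin2a did not differ from each other beyond their spread. In KA glia Grin1 came first with 7.34 ± 5.41 CPM per kb, and Grin2a (3.84 ± 2.86), Grin2c (3.68 ± 2.81), Grin3a (2.70 ± 0.294) and Grin2b (2.50 ± 0.472) followed, and neighbours in this order did not differ beyond their spread. The length of the annotated exons is larger than that of any 1 transcript, so these levels depend on the annotation.

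Within the GluN2 genes, Grin2a made up 65.4 ± 0.492% of the summed CPM per kb in SH neurons and 60.7 ± 4.04% in KA neurons (SD, n = 3). Grin2b made up 25.5 ± 2.34% and 29.8 ± 5.07%, Grin2d 7.10 ± 0.409% and 8.56 ± 1.06%, and Grin2c 1.91 ± 2.38% and 0.899 ± 0.632%. In neurons the GluN2 pool was thus mostly Grin2a, then Grin2b, in both treatments. In SH glia Grin2c made up 79.5%, 39.4% and 58.7% of the GluN2 sum in replicates 1, 2 and 3, and in KA glia 61.5%, 19.5% and 15.5%. The share was lower in KA within each replicate number, while the ranges of both treatments overlapped.

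**Figure D3:**
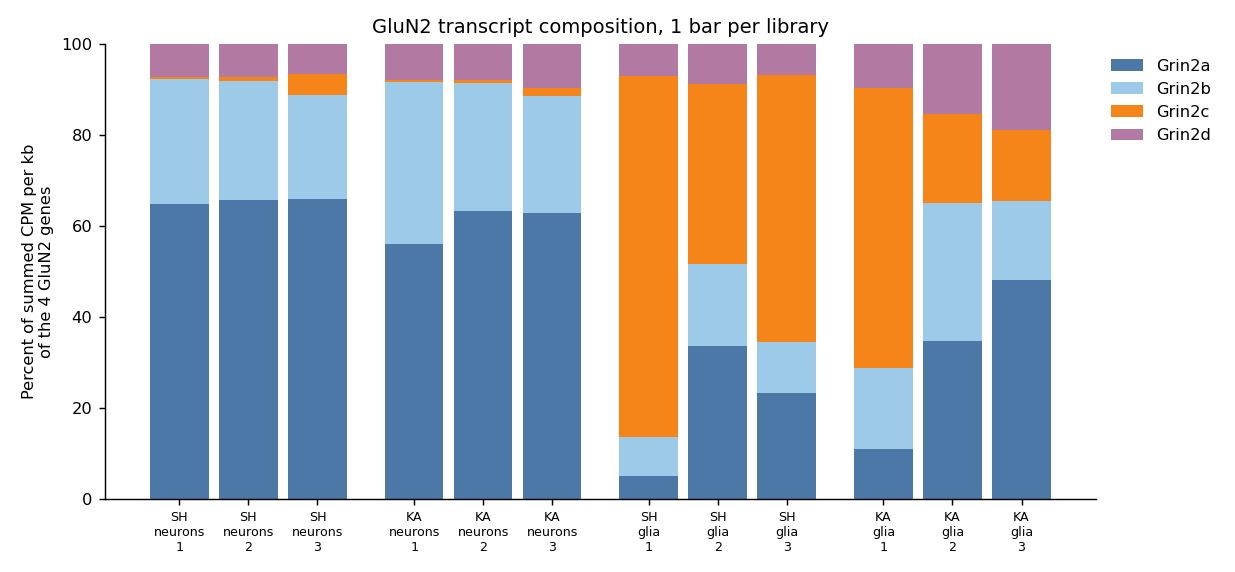
Percent of the summed CPM per kb of Grin2a, Grin2b, Grin2c and Grin2d in each library, with 1 stacked bar per library and replicates 1 to 3 within each group. Grin2a fills 56.1% to 65.8% of every neuronal bar, and Grin2c fills 39.4% to 79.5% of the SH glia bars and 15.5% to 61.5% of the KA glia bars.

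In neurons no subunit gene passed the test between KA and SH. The edgeR quasi-likelihood test called 0 of 7 members at an FDR below 0.25, 0 of 7 had an unadjusted p below 0.05, and DESeq2 called 0, against 0.34% of all genes tested that edgeR called. The log2 fold change of KA over SH was 0.02 (SE 0.60) for Grin1, -0.27 (SE 0.69) for Grin2a, 0.06 (SE 0.44) for Grin2b, 0.13 (SE 0.43) for Grin2d and 0.05 (SE 0.35) for Grin3a. Each of these differences was smaller than its standard error. Grin2c was at -1.56 (SE 0.88, FDR 1) and Grin3b at 0.84 (SE 1.01). The Grin2c value rested on SH neurons replicate 3 (18.8 CPM) and turned to 0.72 without it. KA and SH neurons overlapped for all 7 subunits, while 9.72% of all genes had no overlap.

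KA and SH libraries with the same replicate number deviated together, so the comparison was also fitted with the replicate number as a block. The paper does not call these pools paired. In neurons 0 of 7 members were called with the block, against 3.05% of all genes, and standard errors were smaller. Grin1 was at 0.05 (SE 0.28), Grin2a at -0.15 (SE 0.29), Grin2b at 0.17 (SE 0.27), Grin2d at 0.22 (SE 0.30) and Grin3a at 0.08 (SE 0.27) on the log2 scale. Grin2c moved to -0.91 (SE 0.48, FDR 0.719), and Grin3b was at 0.81 (SE 0.73).

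The balance of subunits in neurons was compared as ratios of CPM per kb. Grin2a to Grin2b was 2.36, 2.51 and 2.87 in SH replicates 1, 2 and 3 and 1.58, 2.23 and 2.45 in KA replicates. The KA values were lower within each number, but 1 of them lay inside the SH range, and the log2 difference of -0.32 gave p = 0.2 in an exact two-sided permutation test (adjusted p = 0.6 over 3 ratios). The GluN2 sum to Grin1 ranged from 0.606 to 1.05 in SH and from 0.558 to 1.00 in KA, with a log2 difference of -0.10 and an exact permutation p = 0.7 (adjusted p = 0.9). Grin3a to Grin1 ranged from 0.0675 to 0.0744 in SH and from 0.0542 to 0.0963 in KA, with a log2 difference of 0.02 and an exact permutation p = 0.9 (adjusted p = 0.9). With 3 pools against 3 the smallest p this test allows is 0.1.

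In glia Grin2c and Grin3a were lower after KA, and whether they passed the test depended on the fit. All 3 KA libraries lay below all 3 SH libraries for both genes, with a ratio of means of 3.46 for Grin2c and 1.88 for Grin3a (SH over KA). For Grin3a the gap was narrow, since SH glia replicate 1, a low-input library, had 35.9 CPM and KA glia replicate 1 had 35.6 CPM. The other 5 members overlapped, and 6.61% of all genes had no overlap between KA and SH glia. Without the block edgeR called 0 of 7 members at an FDR below 0.25, against 0.747% of all genes, 1 member (Grin3a) had an unadjusted p below 0.05, and DESeq2 called 0. Grin2c had a log2 fold change of -1.80 (SE 0.86, FDR 1) and Grin3a of -0.91 (SE 0.35, FDR 0.756) in that edgeR fit.

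With the replicate block both genes passed the edgeR test. Grin2c fell by 2.03 on the log2 scale (SE 0.41, FDR 0.0089) and Grin3a fell by 0.85 (SE 0.27, FDR 0.133), 2 of 7 members lower in KA against 4.17% of all genes lower and 3.47% higher. Grin1 (-0.03, SE 0.29), Grin2a (-0.18, SE 0.30), Grin2b (-0.10, SE 0.27) and Grin2d (0.00, SE 0.31) were not called, nor was Grin3b (1.49, SE 0.76, FDR 0.435), whose SH group included the library with 0 counts. Leaving out both glia libraries of replicate number 3 ended the Grin2c call (-1.66, FDR 0.275). Grin3a was not called without number 2 (-0.72, FDR 0.295), without number 3 (-0.68, FDR 0.529) or with library size in place of TMM (-0.60, FDR 0.312). Without the block it was called where genes needed at least 10 counts in every library (-0.85, FDR 0.205). The low-input library was the SH one in number 1 and the KA one in number 2. Within these numbers treatment and RNA input therefore differed together, and only number 3 had equal input. Without both low-input libraries and without the block neither gene was called, and 41 genes of the whole table were. The part of RNA input in the block values was not tested.

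**Figure D4:**
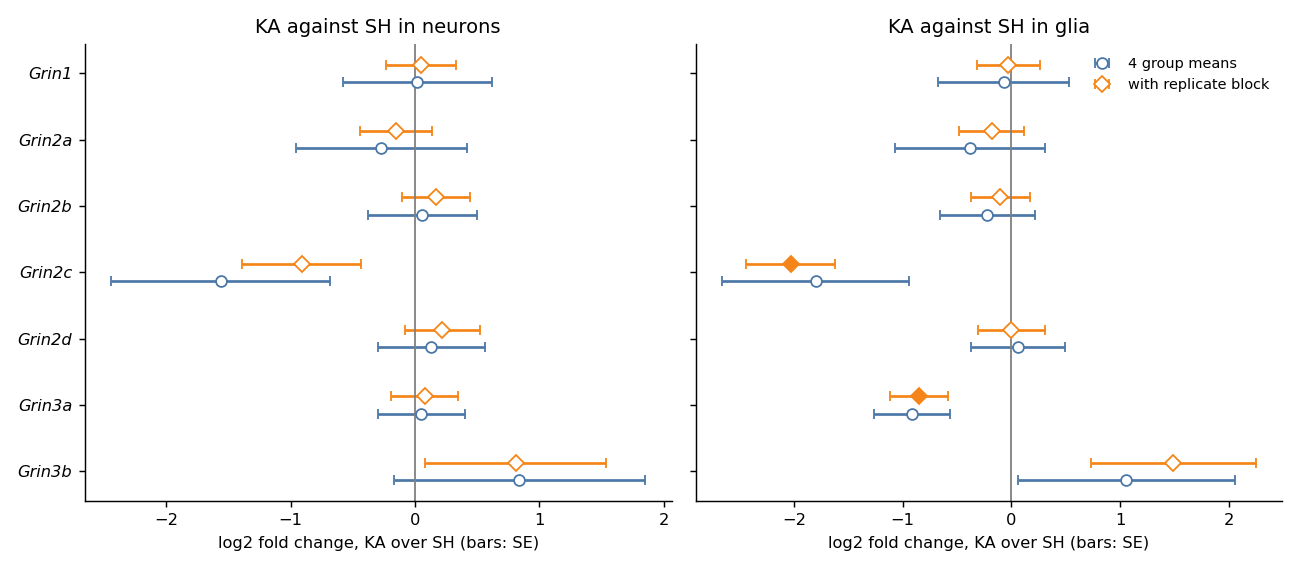
Log2 fold change of KA over SH (bars show 1 SE) for the 7 subunits in neurons and in glia, from the fit of 4 group means (blue circles) and from the fit with the replicate block (orange diamonds), filled where the FDR is below 0.25. Only Grin2c and Grin3a in glia with the block are filled, at -2.03 and -0.85.

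The summed markers of 4 glial cell types had lower ranges in KA glia than in SH glia. The summed CPM of 5 oligodendrocyte precursor (OPC) markers was 1360, 941 and 1640 in SH glia and 650, 398 and 647 in KA glia, and that of 8 oligodendrocyte markers ranged from 14300 to 29800 in SH and from 7490 to 14000 in KA. The groups of both lists did not overlap, and 4 of 5 OPC and 5 of 8 oligodendrocyte markers were called lower in KA with the block (1 and 0 without it). Of all genes 4.17% were called lower with the block and 0.306% without it. The sum of 10 microglial markers ranged from 1060 to 2550 CPM in SH glia and from 745 to 1600 CPM in KA glia, and 3 were called lower with the block and 2 without it. The sum of 10 astrocyte markers ranged from 2030 to 2870 CPM in SH glia and from 1270 to 2360 CPM in KA glia. Without the block edgeR called 0 astrocyte markers in either direction. With the block it called 6 lower, against 4.17% of all genes, among them the gap junction genes Gja1 (-1.85, FDR 0.00313) and Gjb6 (-1.91, FDR 0.00192), and Gfap, a marker of reactive astrocytes, was called higher (1.90, FDR 0.00142, against 3.47% of all genes called higher). Aldh1l1 (-0.08) and Sox9 (0.12) were near 0, and no marker of the 4 lists was at 0 counts in any library. In pooled nuclei, fewer cells of a type and less RNA per cell cannot be told apart, and the part of either in the Grin2c and Grin3a values was not tested.

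**Figure D5:**
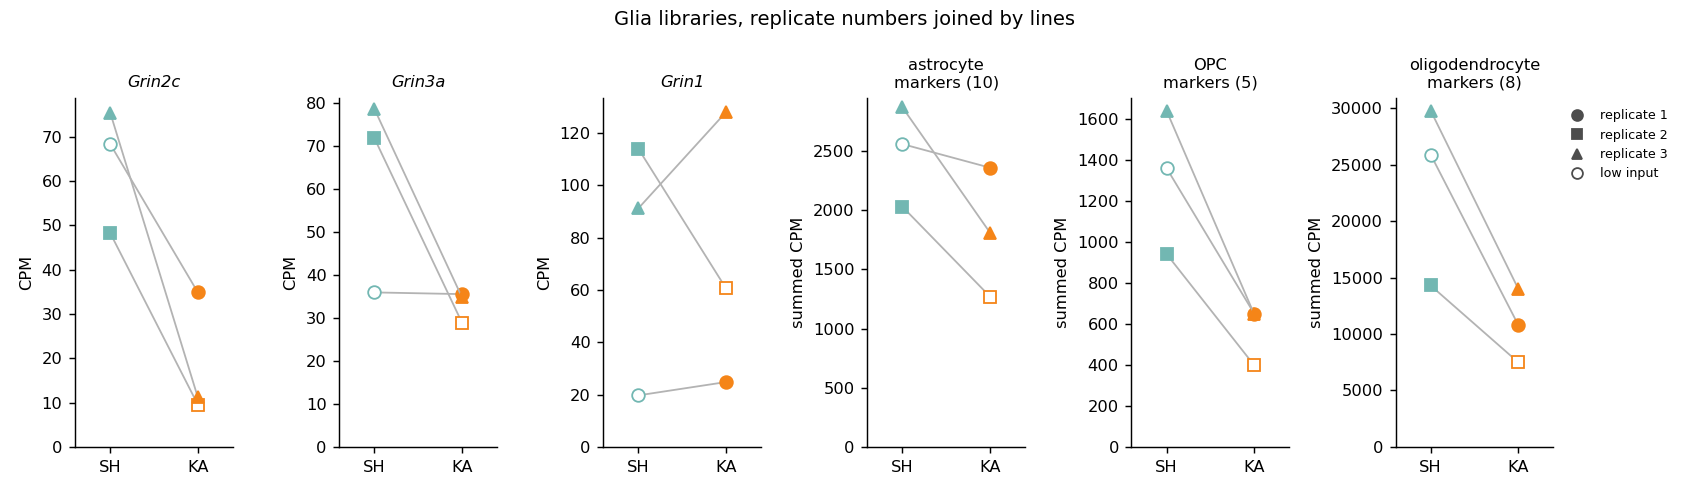
CPM of Grin2c, Grin3a and Grin1 and summed CPM of astrocyte, OPC and oligodendrocyte markers in SH and KA glia (linear axes from 0), with replicate numbers joined by lines and open symbols for the low-input libraries. Grin2c, Grin3a and the OPC and oligodendrocyte sums are lower in all KA libraries than in all SH libraries, while Grin1 goes down in replicate 2 and up in replicates 1 and 3.

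Whether KA acted differently on the cell types was tested as the difference of the effects, glia minus neurons. The edgeR test called 0 of 7 members and 0% of all genes (0 of 37598, of which 502 had an unadjusted p below 0.05, while DESeq2 called 34), and 0 members had an unadjusted p below 0.05. With the block 0 of 7 members were called, against 0.402% of all genes, and 1 member (Grin3a) had an unadjusted p below 0.05. Grin3a had a log2 difference of -0.96 (SE 0.49, FDR 1), or -0.92 with the block (SE 0.38, FDR 0.912). Grin2c had -0.24 (SE 1.22, FDR 1), or -1.12 with the block (SE 0.62, FDR 1). A KA effect on either gene that was particular to glia was therefore not shown. Neurons and glia of a pool come from the same mice, and no fit of this difference used that pairing.

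The receptor works with partners, of which 6 lists with 73 genes were examined, all of them tested. In neurons edgeR called 0 of 73, against 0.34% of all genes, and 4 had an unadjusted p below 0.05. DESeq2 called 1 of 73 in neurons, beside 354 of all 37598 genes. In glia edgeR called 3 of 73 (Phgdh, Nrgn and Lin7b), all lower in KA, against 0.306% of all genes called lower. The paper already lists these 3 genes as downregulated in glia. All lists were chosen with earlier results of these data known, so the counts of this paragraph are no independent support. The median log2 fold change of the 73 genes was -0.12 in neurons and -0.28 in glia, beside 0 and 0.14 for all genes tested. With the block 5 were called higher and 5 lower in neurons, where 1.94% and 1.11% of all genes were called higher and lower. In glia 1 was called higher and 19 lower with the block, where 3.47% and 4.17% of all genes were called higher and lower. DESeq2 without the block called 4 of 73 in glia, the same 3 genes and Psat1, all lower, beside 379 of all 37598 genes called lower.

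Among 16 scaffold genes of the postsynaptic density, which anchor the receptor, edgeR called 0 without the block in either cell type. With the block it called 3 higher in neurons, against 1.94% of all genes called higher. DESeq2 without the block called 1 (Homer1 in neurons), beside 354 of all 37598 genes in neurons. Homer1, which links glutamate receptors to internal calcium stores and has an activity-induced short form, measured 131, 138 and 207 CPM in SH neurons and 484, 327 and 342 CPM in KA neurons. Its log2 fold change in edgeR was 1.28 (SE 0.40, FDR 0.641), and 1.28 (SE 0.28, FDR 0.0235) with the block. DESeq2 called it at 1.27 (FDR 0.187), and so did edgeR without the block in separate fits (1.30, FDR 0.0672), with library size only (1.47, FDR 0.0601) and with at least 10 counts in every library (1.38, FDR 0.0714). Dlgap4, a scaffold that binds PSD-95, was at 0.99 (FDR 1) and at 1.00 with the block (FDR 0.027), and Shank1 at 1.17 with the block (FDR 0.0774). Without the block Dlgap4 was called in neurons with library size only (1.12, FDR 0.206). In glia edgeR with TMM called 0 of the 16 with or without the block, with Homer1 at 0.43 and Dlgap4 at 0.49. With the block and library size only both were called higher there (0.63, FDR 0.239, and 0.66, FDR 0.0816).

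Of 16 kinases and phosphatases that act on the receptor, the main edgeR fit (4 group means, TMM) and DESeq2 called 0 without the block in either cell type. Ppp3ca, the catalytic subunit of calcineurin, measured 1250, 1020 and 1300 CPM in SH neurons and 577, 623 and 710 CPM in KA neurons. The groups did not overlap, as for 9.72% of all genes in neurons, and the log2 fold change was -0.90 (FDR 1, and 0.065 with the block). Without the block Ppp3ca was called in separate fits of the cell types (-0.91, FDR 0.197). Dapk1, a kinase that binds GluN2B, was at -0.82 (FDR 1, and 0.256 with the block). Ptpn5, the phosphatase STEP that acts on GluN2B, was called higher in neurons with the block (0.88, FDR 0.0679). In glia 6 were called lower with the block and none higher, against 4.17% of all genes lower and 3.47% higher. An example is Camk2g, a subunit of the calcium and calmodulin kinase CaMKII (-0.73, FDR 0.133). Without the block Camk2g was at -0.70 (FDR 0.959), but was called with at least 10 counts in every library (-0.66, FDR 0.19).

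Of 10 calcium effectors, Nrgn (neurogranin, which binds calmodulin) was called lower in KA glia. It measured 80.2, 89.3 and 104 CPM in SH glia and 26.9, 24.1 and 49.5 CPM in KA glia, a log2 change of -1.44 (SE 0.36, FDR 0.189). The call was lost without SH glia replicate 3 (-1.34, FDR 0.738), KA glia replicate 1 (-1.31, FDR 1), KA glia replicate 2 (-1.29, FDR 1) or both low-input libraries (-1.44, FDR 1). Separate fits of the cell types (-1.32, FDR 0.369) and no filter (-1.52, FDR 0.626) also lost the glial call. In neurons Nrgn measured 320, 266 and 302 CPM after SH and 143, 129 and 193 CPM after KA, a change of -0.93 (FDR 1, and 0.0544 with the block). Without the block Nrgn was called in neurons in separate fits (-0.96, FDR 0.136) and with library size only (-0.84, FDR 0.145). The same held with at least 10 counts in every library (-0.91, FDR 0.132). Nrgn did not overlap between treatments in either fraction, as for 9.72% of all genes in neurons and 6.61% in glia. Its reads were higher in neurons. Calm3, a calmodulin gene, was at -1.18 in glia (FDR 0.68, and 0.028 with the block), and Calm2 was at -0.70 in neurons (FDR 1, and 0.382 with the block). Without the block Calm3 was called in glia with at least 10 counts in every library (-1.19, FDR 0.119).

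Of 12 trafficking and auxiliary partners, Lin7b, which belongs to the complex that carries GluN2B vesicles with Kif17, was called lower in KA glia. It measured 5.95, 10.9 and 14.8 CPM in SH glia and 2.00, 2.06 and 5.89 CPM in KA glia, a log2 change of -1.65 (SE 0.45, FDR 0.249), which is at the edge of the threshold. The call was lost without SH glia replicate 2 (-1.64, FDR 0.278), SH glia replicate 3 (-1.33, FDR 1), KA glia replicate 1 (-1.44, FDR 1), KA glia replicate 2 (-1.44, FDR 1) or both low-input libraries (-1.77, FDR 1). Separate fits of the cell types (-1.58), DESeq2's size factors (-1.71, FDR 0.267) and no filter (-1.75, FDR 0.347) also lost the glial call. In neurons Lin7b measured 114, 81.0 and 103 CPM after SH and 49.6, 28.0 and 36.9 CPM after KA, a change of -1.38 (FDR 0.641, and 0.00782 with the block). Without the block Lin7b was called in neurons in separate fits (-1.38, FDR 0.0644) and with library size only (-1.24, FDR 0.237). It was also called with at least 10 counts in every library (-1.31, FDR 0.192) and with edgeR 4 (-1.39, FDR 0.228). Its partner Apba1 was at 0.87 in neurons (FDR 1, and 0.064 with the block) and Cask at -0.63 in glia (FDR 1, and 0.156 with the block). Without the block Cask was called in glia with at least 10 counts in every library (-0.60, FDR 0.2). Both Nrgn and Lin7b were higher in neurons (log2 1.95 and 3.37). With the block 2 of 10 neuron markers were called lower in KA glia (median log2 fold change -0.47), against 4.17% of all genes. The part of neuronal RNA in the glial values of these genes was not tested.

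Of 11 genes for the supply and clearance of the co-agonists, Phgdh, the first enzyme of serine synthesis, was called lower in KA glia. It measured 102, 52.0 and 72.1 CPM in SH glia and 30.9, 24.7 and 21.5 CPM in KA glia, a log2 change of -1.56 (SE 0.31, FDR 0.0626). The call was lost without SH glia replicate 1 (-1.14, FDR 0.358), without KA glia replicate 2 (-1.61, FDR 0.399) and without both (-1.45, FDR 0.926). Separate fits of the cell types also lost the call of Phgdh (-1.36, FDR 0.472). Psat1, the next enzyme of that path, was at -1.20 (FDR 0.512, and 0.00485 with the block). Its KA and SH glia did not overlap, as for 6.61% of all genes. Without the block DESeq2 called Psat1 (-1.24, FDR 0.151). So did edgeR with library size only (-0.97, FDR 0.184) and with at least 10 counts in every library (-1.17, FDR 0.0627). With the block 4 of the 11 were called lower in glia, including the glycine transporter Slc6a9 (-1.08, FDR 0.0145) and the D-serine and glycine exchanger Slc7a10 (-1.62, FDR 0.00138), while the neutral amino acid transporter Slc1a5 was called higher (0.90, FDR 0.221). Of all genes 4.17% were called lower and 3.47% higher in that fit. In neurons Shmt1, which converts serine to glycine, was at -0.92 (FDR 0.805, and 0.176 with the block) and Slc7a10 at -1.49 (FDR 1, and 0.0544 with the block). Slc7a10 in neurons ranged from 0.940 to 36.9 CPM with its highest value in SH replicate 3, as for Grin2c.

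Of 8 genes for glutamate supply and clearance, edgeR and DESeq2 called 0 without the block in either cell type. Glul, glutamine synthetase, measured 211, 202 and 215 CPM in SH glia and 118, 72.8 and 142 CPM in KA glia, a log2 change of -0.92 (FDR 1, and 0.0669 with the block). Without the block edgeR called Glul in glia where genes needed at least 10 counts in every library (-0.90, FDR 0.208). The astrocytic glutamate transporters Slc1a2 and Slc1a3 were at -0.81 and -1.03 in glia (FDR 1 for both), and were called with the block (FDR 0.0849 and 0.0199). In neurons Glul was at -0.67 and Slc1a3 at -0.83, neither called by edgeR with or without the block, while DESeq2 with the block called both (-0.75, FDR 0.203, and -0.70, FDR 0.182). Slc1a2 was the only 1 of the 73 genes called for the difference of effects with the block (-1.49, FDR 0.218), against 0.402% of all genes. Slc1a2 and Slc1a3 are also among the 10 astrocyte markers above.

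Between cell types edgeR called 46 of the 73 partners higher in neurons and 10 higher in glia, where 11.6% and 6.91% of all genes were called. Higher in neurons were 14 of 16 scaffold genes, 11 of 16 kinases and phosphatases, 9 of 10 calcium effectors and 8 of 12 trafficking partners, with 0 of these lists higher in glia. Of the 8 glutamate genes 3 were called in each direction, and the difference between lists was not tested. Of the co-agonist genes 7 of 11 were called higher in glia and 1, the serine racemase Srr, higher in neurons (1.05, FDR 0.00553). Phgdh (-2.77), Psat1 (-3.13) and Slc7a10 (-3.45) were on the side of Grin2c, with log2 values of neurons over glia.

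The genes most like each subunit over the 12 libraries were found by Pearson correlation of log2(CPM + 0.5) among 12094 tested genes with a mean of at least 10 CPM. They were Plekhg5 and Rnf165 for Grin1 (r = 0.996 and 0.994), Epha6 and Plxna4 for Grin2a (both 0.997), Tiam1 and Adamts3 for Grin2b (0.997 and 0.993) and Cep170b and Gm43951 for Grin2d (both 0.986). Grin2c was closest to Mfge8 (0.981) and Mlc1 (0.979), both known from astrocytes. Grin3a was closest to Kcna2 (0.972), a potassium channel subunit, and to Ttll3 (0.918), and Grin3b to Gm17435 (0.898) and Bicc1 (0.884). The libraries of a fraction share the sort and those of a pool share the mice, so these values describe the split between cell types as much as anything within one.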

How the data were processed

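RNA was measured in 12 libraries (4 groups of 3 pools). The authors trimmed reads with Trim Galore 0.4.3, aligned them to mm10 with Rsubread and deposited read counts per gene from featureCounts (defaults, GENCODE M16), without normalization. Single reads of 75 bases and paired reads of 150 bases were used, and the text does not say which libraries had which. The bisulfite libraries were not used here.

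Genes were matched to GENCODE M21 symbols without ID versions (53274 of 53379). They were filtered with filterByExpr (minimum count 10, minimum total 15) and scaled by TMM. All 12 libraries were fitted in edgeR 4.0.16 (R 4.3.3, limma 3.58.1) with 4 group means, glmQLFit with legacy=TRUE and Benjamini-Hochberg adjustment over 37598 genes. The thresholds were an FDR of 0.25 for KA against SH and for the difference of effects, and 0.05 between cell types. The SE is the size of the log2 fold change over the square root of F. The test was tried on simulated counts with known changes. The ratios used exact permutation tests in scipy. Figures were drawn with matplotlib.

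Total counts ranged from 7769400 to 40364768, and 3 counts, taken as the limit that a count of 0 allows, correspond to 0.0896 to 0.261 CPM (counting error only). Pools are separate groups of mice, 3 per treatment. In the main edgeR fit the p-values rest on a spread between libraries that the 4 groups share. Neurons and glia of the same pool were treated there as independent, also in the test between cell types. With the block, p-values rest on the spread left after replicate number, or after pool between cell types.

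As a check of pairing, deviations from the group mean were correlated across genes between KA and SH libraries that share a number, which gave 0.399, 0.264 and 0.551 in neurons and 0.457, 0.543 and 0.764 in glia. The numbers were therefore taken as pairing the samples, and a block was fitted beside the comparison. The paper does not call the KA and SH pools paired. Pool size sets only number 1 apart, since pools 2 and 3 both held 2 mice. Libraries with different numbers were not correlated, so the check cannot show that other matches would be worse. Alternatives were the block (within each cell type, or by pool between cell types), separate fits, other scalings, filters, thresholds and tools (DESeq2 1.42.0), either treatment alone, and leaving out libraries. Fits that combine the block with another scaling, with DESeq2 or with a replicate number left out were chosen after seeing the data.

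The members and all lists were chosen with earlier results of these data known. Named are all members, every partner gene past the threshold, and otherwise the 2 smallest p-values of a list per cell type (the result for 1 such gene is not reported here); Shank1, Ptpn5, Slc6a9, Slc1a5, Gja1, Gjb6, Gfap, Sox9 and Srr were named after their values were seen.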

Additional observations from a re-analysis of the deposited data

How the results depend on the processing

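The subunits called between cell types stayed at 4 or 5 in every fit run, and 0 were called in neurons or for the difference of effects in any. In glia the replicate block called 2 members (Grin2c and Grin3a), as it did with DESeq2's size factors, with the DESeq2 Wald test and without replicate number 1. It called 1 with library size only (Grin2c) and 1 without number 2 (Grin2c), and the filter of at least 10 counts in every library, which removed Grin2c and Grin3b, called 1 (Grin3a) without the block. The block changed no other call of a subunit. The cause of these differences was not tested. Library size only moved the median log2 fold change of all genes in glia from 0.14 to 0.42 and between cell types from -0.153 to -0.59. It also moved the split of calls, to 514 higher of 740 in glia (166 of 281 with TMM), 3318 of 4244 with the block (1305 of 2871) and 3259 higher in neurons of 7484 (4367 of 6964). Between cell types Grin2d was also not called in SH libraries only (0.79, FDR 0.388) or KA libraries only (0.86, FDR 0.133).

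Among subunits not called, the log2 fold change in glia changed direction for Grin1 with separate fits of the cell types (0.02), library size only (0.01), the block with library size only (0.22) and the block without replicate number 2 (0.29). The last pair of fits also turned Grin2a (0.06 and 0.25) and Grin2b (0.15 and 0.02), as library size only did for Grin2b (0.04). Grin2d turned without both low-input libraries (-0.09), with the block and either DESeq2 scaling or test (-0.03), and with the block without number 1 (-0.04) or 3 (-0.34). Grin3a between cell types turned with library size only (-0.08), without both low-input libraries (-0.04) and in SH libraries only (-0.59).

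With 1 library left out, values in neurons ran from -0.20 to 0.17 (Grin1), -0.62 to 0.07 (Grin2a), -0.26 to 0.30 (Grin2b), -2.52 to 0.72 (Grin2c), -0.20 to 0.40 (Grin2d) and -0.17 to 0.24 (Grin3a). In glia they ran from -0.82 to 0.35 (Grin1), -1.12 to 0.17 (Grin2a), -0.41 to 0.21 (Grin2b), -0.40 to 0.31 (Grin2d), -2.67 to -1.54 (Grin2c) and -1.06 to -0.71 (Grin3a), between cell types from -0.20 to 0.45 (Grin3a) and -1.08 to 0.07 (Grin3b), and for the difference of effects from -2.53 to 0.72 (Grin2c). Of the partners, Dlgap4 (-0.18 to 0.90) and Homer1 (-0.02 to 0.62) in glia and Slc1a3 (-1.89 to 0.53) and Slc7a10 (-2.84 to 0.61) in neurons changed direction. The calls of Phgdh, Nrgn and Lin7b in glia were lost in 9 of the fits with 1 library left out and in 12 others.

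Genes called over the whole table in neurons were 18 at an FDR of 0.05, 656 in separate fits, 1147 with the block, 363 with library size only, 465 with at least 10 counts in every library, 253 with edgeR 4 and 354 with DESeq2, and 11 to 143 with 1 library left out. In glia they were 62, 146, 2871, 740, 1203, 515 and 681 in the same order, 41 without both low-input libraries and 83 to 554 with 1 library left out. The block gave 1247 in neurons and 3383 in glia with DESeq2's size factors, 1350 and 4244 with library size only, 1812 and 4742 with DESeq2, and in glia 2266, 3926 and 876 without replicate number 1, 2 or 3. For the difference of effects the counts were 151 with the block (174, 100 and 473 with the same changes), 7 with library size only, 9 with no filter, 15 with at least 10 counts, 34 with DESeq2 and 0 to 3 with 1 library left out. Between cell types they were 11092 with the block by pool, 4638 without both low-input libraries, 3097 in SH and 4561 in KA libraries only.

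With 1 library left out, the log2 ratio differences in neurons ran from -0.45 to -0.14 (Grin2a to Grin2b), from -0.32 to 0.14 (GluN2 sum to Grin1) and from -0.19 to 0.23 (Grin3a to Grin1), and the latter pair of ranges spans 0. Grin3b rested on 0 to 60 counts per library, and Grin2c in neurons on 7 to 461.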
